A study of Mus musculus with 9 samples.

Results

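The 10 genes described here are markers of retinal ganglion cells (Rbpms, Pou4f1, Sncg, Nefl, Nefm, Nefh, Slc17a6, Thy1, Gap43 and Nrn1), chosen by name as known markers of these cells. All 10 were among the 16367 genes of the table of sorted cells. In the 17035 genes of the table of cultured cells 9 were listed, and Slc17a6 was not listed. The sorted table held no gene with fewer than 5 reads in total, whereas the culture table listed 199 genes with 0 reads throughout. A gene that is not listed is therefore not read as one with 0 reads. RNA sequencing covered 9 libraries of wild-type mouse cells prepared as Müller glia, the radial glia of the retina. For 6 of them neural retinas were pooled by 4, dissociated with papain, freed of dead cells and enriched with magnetic beads that bind cells carrying GLAST, a glutamate transporter of the glial surface. The sham group (3 libraries) had only a corneal incision, whereas the ocular hypertension group (OHT, 3 libraries) had 1.2 µL of silicone oil injected into the anterior chamber of both eyes, a model of chronic mild pressure elevation. The other 3 libraries were untreated primary cultures from C57BL/6J pups 8 to 10 days old, grown in serum-containing medium and passaged. The sources used here give neither the strain and age of the operated animals nor the time after injection. Whether libraries of a group came from separate animals on separate days is not given either, so p-values measure the spread between these libraries only, which may be technical.

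Retinal ganglion cells are the output neurons of the retina: they collect signals from bipolar and amacrine cells and send long axons through the optic nerve to the brain. They are the cells that degenerate in glaucoma, in which raised eye pressure is the main risk factor. None of the 10 genes is a marker of Müller glia. Several of them are not specific to ganglion cells: Thy1 is also a surface protein of T cells and fibroblasts, Rbpms is also found in smooth muscle and pericytes, and neurofilaments occur in other neurons with long processes.

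The stretches before the transcription start of Slc17a6, Pou4f1 and Sncg are shown because these are 3 of the 4 genes whose OHT libraries all lay below the sham libraries, and the 3 of 10 genes with an entry in the RefSeq promoter table used (build GRCm38.p6, whereas the submitters' processing notes name mm39). Each is given 5′ to 3′ on the strand of the gene and ends before the start of transcription in both RefSeq and GENCODE M21; capitals mark GGGCGG, the GC box that Sp1-type factors bind, on either strand (CCGCCC where the match is on the other strand). The windows are chr7:51621580-51621829 (plus strand) for Slc17a6, chr14:104468000-104468249 (minus strand) for Pou4f1 and chr14:34374790-34374919 (minus strand) for Sncg.
Slc17a6: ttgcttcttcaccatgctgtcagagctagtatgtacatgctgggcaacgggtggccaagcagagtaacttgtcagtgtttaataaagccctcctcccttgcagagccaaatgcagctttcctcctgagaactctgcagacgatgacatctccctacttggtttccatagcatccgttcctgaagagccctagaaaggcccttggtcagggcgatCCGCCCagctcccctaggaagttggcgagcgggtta
Pou4f1: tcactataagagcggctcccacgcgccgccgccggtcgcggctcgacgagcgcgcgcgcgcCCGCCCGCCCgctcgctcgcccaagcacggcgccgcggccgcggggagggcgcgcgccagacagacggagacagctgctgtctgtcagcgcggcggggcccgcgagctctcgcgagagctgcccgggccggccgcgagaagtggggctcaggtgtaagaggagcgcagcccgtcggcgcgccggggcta
Sncg: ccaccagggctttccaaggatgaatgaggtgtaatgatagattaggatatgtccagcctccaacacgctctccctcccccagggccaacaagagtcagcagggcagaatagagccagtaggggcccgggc
Slc17a6 held 1 match to the GC box and Pou4f1 held 2 that share letters, while 32.7% of all 32851 RefSeq promoters held at least 1 in the 250 bases before the start. Neither TATAAA, the TATA box, nor TAATTA, a core that homeodomain proteins such as the product of Pou4f1 can bind, was found on either strand in the 3 windows; 12.4% and 4.84% of all promoters held them in 250 bases. The Pou4f1 stretch had a GC content of 78.0%, against 53.2% for Slc17a6, 56.9% for Sncg and a median of 52.4% over all promoters. The Sncg window is shorter, at 130 bases, so these shares do not apply to its length. Such matches describe the letters only.

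Levels are given as normalised read counts, that is reads divided by 1 factor per library, or as ppm, reads per 1e6 reads of a library's total. Total reads ranged from 37.8 to 53.6 M (1e6) in the sorted libraries and from 66.3 to 76.7 M in the cultures, with a mean of 41.6 ± 3.44 M in sham and 49.4 ± 3.60 M in OHT (SD, n = 3), the lowest OHT total above the highest sham total. The Müller glia markers (12 genes) summed to 3563 to 8667 ppm in sham and 1914 to 4253 ppm in OHT, and the microglial markers (12 genes) to 34109 to 52857 and 46537 to 62663 ppm, not divided by transcript length. The sorted fraction thus held both Müller glial and microglial RNA. The 10 ganglion cell genes were a small part of every library. They summed to 78.7, 101 and 61.9 ppm in the sham libraries and to 61.3, 35.1 and 29.9 ppm in the OHT libraries. The sums did not overlap, but OHT replicate 1 lay directly below sham replicate 3. In that OHT library Nefl alone made up 79.7% of the sum, which is not divided by transcript length and so weighs long transcripts more. Without Nefl the OHT sums were 12.4, 30.8 and 25.5 ppm and the sham sums 64.7, 73.0 and 52.9 ppm. The 13 mitochondrially encoded genes, a sign of RNA and cell quality, took 12.2%, 18.1% and 13.4% of reads in sham and 5.56%, 3.84% and 1.98% in OHT. Over the other reads the ganglion cell genes summed to 89.7, 124 and 71.5 ppm in sham and 64.9, 36.5 and 30.5 ppm in OHT, again without overlap. In bulk RNA fewer cells of a type in the retina, fewer carried into the sorted fraction and less RNA per cell cannot be told apart.

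**Figure D1:**
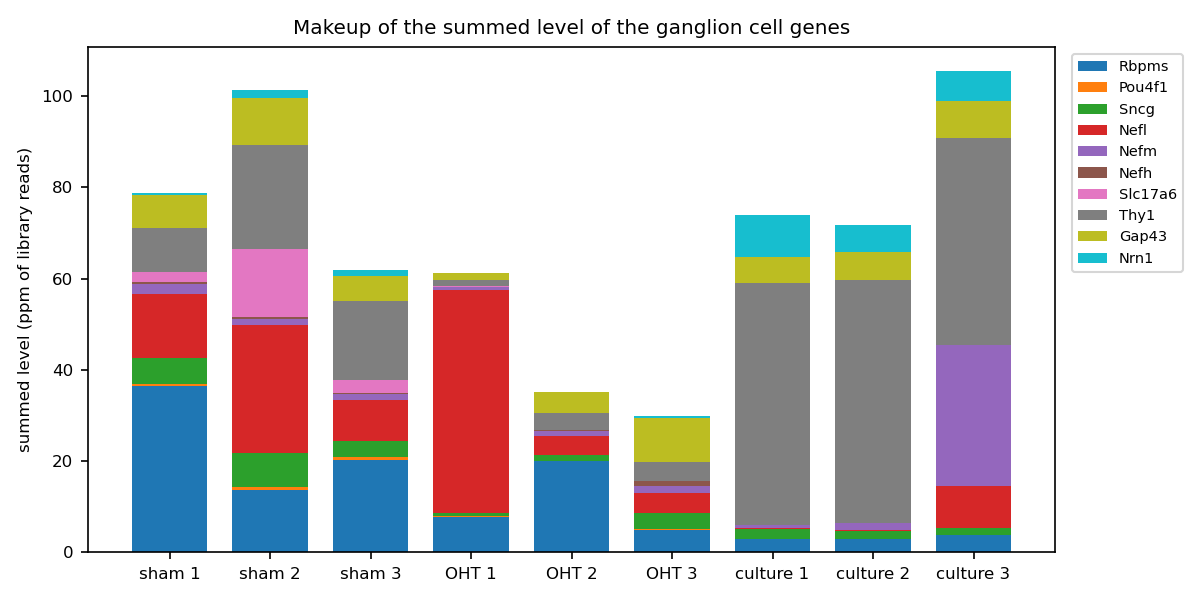
Bars show the level of each gene in ppm of library reads (y axis, linear, from 0), stacked over the 10 genes for each of the 9 libraries (x axis). Levels are not divided by transcript length. Nefl fills most of the bar of OHT replicate 1 and Thy1 most of the bars of culture replicates 1 and 2.

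The comparison of OHT with sham asked which transcripts of the sorted fraction differ under raised eye pressure. Slc17a6, Thy1, Sncg and Pou4f1 had all 3 OHT values under the lowest sham value. No gene passed the threshold: limma with Benjamini-Hochberg adjustment called 0 of the 10 genes and 0% of the 14403 genes tested at an adjusted p under 0.05. edgeR's quasi-likelihood test on whole reads recovered from the values also called 0 of the 10, and 0% of all genes. DESeq2 on the same reads called Slc17a6 and Thy1 lower, 2 of the 10, where it called 1.74% of all genes in either direction and 1.36% as lower. At an unadjusted p under 0.05 limma had the same 2 genes, both lower, against 11.7% of all genes in either direction and 6.3% as lower. The unadjusted counts were also 2 of the 10 in edgeR (10.9% of all genes, 5.67% as lower) and 2 of the 10 in DESeq2 (14.1%, 6.93% as lower). Lower levels without overlap of the groups occurred in 4 of the 10 genes and in 9.18% of all genes, and higher levels without overlap in 0 of the 10 and in 9.26%. The log2 difference of OHT from sham was negative for 9 of the 10 genes and for 54.8% of all genes, with a median of -1.27 for the 10 and -0.12 for all. All 10 genes passed the filter of a mean of at least 10 normalised counts, but Slc17a6, Pou4f1 and Nrn1 did so through the sham libraries, since their OHT means were below 10.

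**Figure D2:**
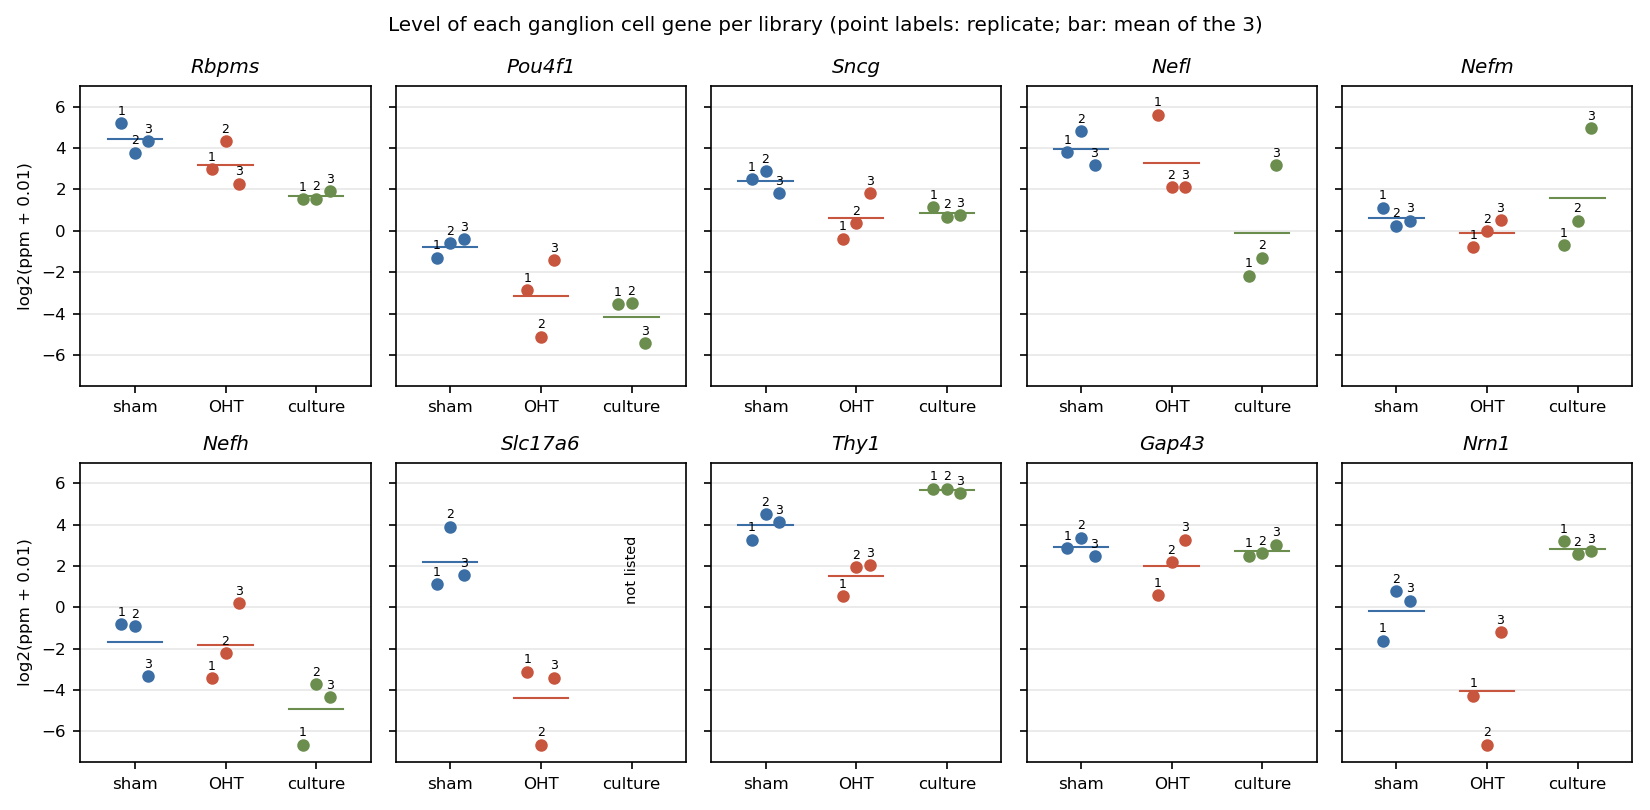
Each panel plots 1 gene as log2(ppm + 0.01) on the y axis, with sham, OHT and culture libraries on the x axis, points numbered by replicate and a bar at the mean of the 3 log2 values. Slc17a6, Thy1, Sncg and Pou4f1 show no overlap between sham and OHT; a point at the bottom of the Slc17a6, Nrn1 and Nefh panels is a library with 0 reads.

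Slc17a6 had the greatest log2 difference of the 10 genes. It encodes the vesicular glutamate transporter VGLUT2, which loads glutamate into the synaptic vesicles of ganglion cells. Its normalised counts were 84.7, 588 and 123 in sham and 6.91, 0 and 3.21 in OHT. Sham replicate 2 was the highest by far, and even the lowest sham library was above every OHT library. Together the OHT libraries held 9 reads of Slc17a6 and the sham libraries 848; the 0 reads of OHT replicate 2 allow up to 0.0560 ppm. The mean was 78.7-fold lower in OHT (265 ± 280 in sham, 3.37 ± 3.46 in OHT, SD, n = 3), but 30.9-fold without sham replicate 2 and 165-fold without OHT replicate 1. On the log2(value + 1) scale the difference was -5.84 (SE 1.39, 95% interval -8.89 to -2.80; limma adjusted p 0.332; exact two-sided permutation p 0.1, the smallest that 3 against 3 can give). The adjusted p was 0.422 in edgeR and 0.000177 in DESeq2. By unadjusted limma p Slc17a6 was gene 32 of 14403.

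Pou4f1 encodes the POU-homeodomain factor Brn3a, which maintains ganglion cell identity. It was at 15.5, 25.8 and 31.6 normalised counts in sham and at 8.29, 0.823 and 13.6 in OHT. The groups did not overlap, although the counts were small: 15, 28 and 33 reads against 6, 1 and 17. OHT minus sham was -1.95 on the log2 scale (SE 1.48), with a limma adjusted p of 0.593 and an exact permutation p of 0.1. Its 95% interval of -5.20 to 1.29 includes 0. The value was -2.56 without OHT replicate 3, -1.06 without OHT replicate 2, -1.01 with a pseudocount of 10 and -0.85 after quantile normalization. Of its relatives, Pou4f2 was listed in neither table and Pou4f3 only in the culture table.

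Rbpms encodes an RNA-binding protein used to count ganglion cells in retinal flat mounts. Its normalised counts were 1427, 539 and 857 in sham and 515, 880 and 184 in OHT. OHT replicate 2 lay above 2 of the 3 sham libraries, so the groups overlapped. On the log2 scale OHT minus sham was -0.99 (SE 0.65, limma adjusted p 0.544), with an interval of -2.42 to 0.44, and leaving out 1 library moved it between -1.50 and -0.37. The mural cell markers (10 genes), another possible origin of Rbpms reads, summed to 219 to 609 ppm in sham and 31.6 to 73.4 ppm in OHT. Vtn (265 ppm) and Rgs5 (172 ppm) made up most of the sham mean of 470 ppm. The other mural genes each averaged 9.69 ppm or less in sham. The part of mural cells in the level of Rbpms was not tested.

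Sncg encodes gamma-synuclein, a small presynaptic and axonal protein abundant in ganglion cells. It was at 220, 289 and 150 normalised counts in sham and at 49.7, 56.8 and 133 in OHT. OHT replicate 3 came close to sham replicate 3, at 3.52 against 3.53 ppm of library reads, so the groups only just failed to overlap on that scale. The mean was 2.75-fold lower in OHT, a log2 difference of -1.54 (SE 0.84) for which limma gave an adjusted p of 0.487 and the exact permutation test 0.1. After quantile normalization it was -0.74. Beta-synuclein, encoded by Sncb, was at 2409 ± 204 and 1045 ± 567 without overlap (log2 difference -1.37, limma adjusted p 0.343).

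Thy1 encodes a surface glycoprotein anchored in the outer leaflet of the membrane, long used to purify ganglion cells. Its normalised counts were 378, 897 and 738 in sham and 94.0, 170 and 154 in OHT. Every OHT library held less than the lowest sham library, and the OHT libraries lay closer together (1.81-fold from lowest to highest) than the sham libraries (2.37-fold). The mean was 4.81-fold lower in OHT. The log2 difference of -2.21 (SE 0.65, 95% interval -3.64 to -0.78) had a limma adjusted p of 0.332, an edgeR adjusted p of 0.422 and a DESeq2 adjusted p of 0.0195, with an exact permutation p of 0.1. Leaving out 1 library gave -2.58 to -1.95. Fibroblasts and T cells also carry Thy1. The 6 fibroblast genes summed to 3.54, 118 and 131 ppm in sham replicates 1, 2 and 3 and to 7.66, 0.411 and 7.55 ppm in the OHT replicates, overlapping through sham replicate 1. Pdgfra, which retinal astrocytes express too, made up most of that sum (79.1 ppm of a sham mean of 84.3 ppm); the other 5 genes, the collagens among them, each averaged 2.91 ppm or less in sham. The 4 T cell genes summed to at most 4.79 ppm in any sorted library, and 1 sham and 1 OHT library were at 0 for all 4. Their part in the level of Thy1 was not tested.

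**Figure D3:**
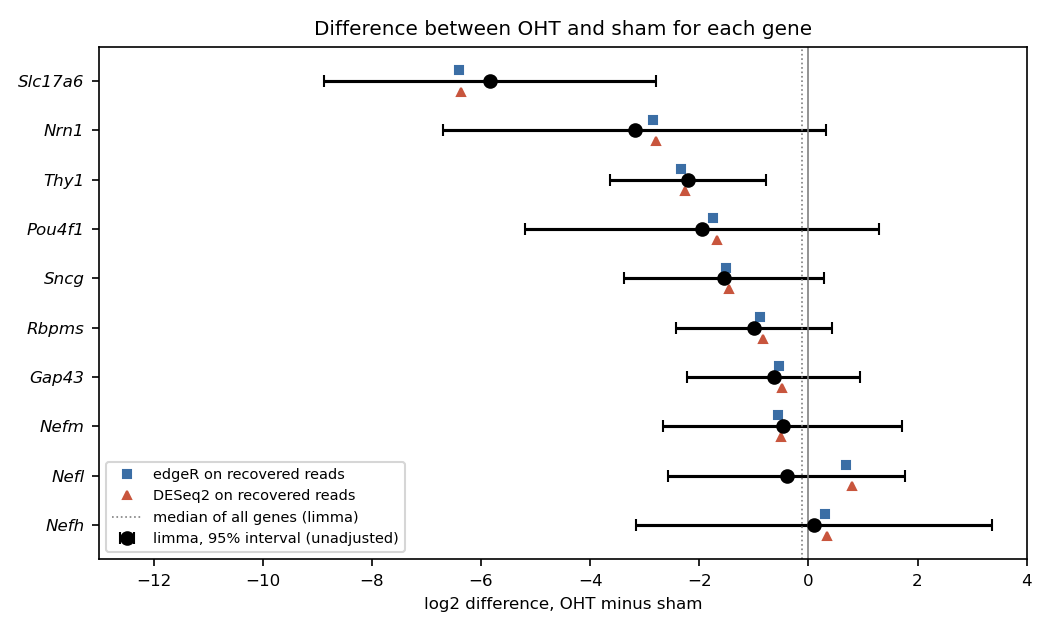
Black points give the log2 difference of OHT from sham for each gene on the x axis (limma), with unadjusted 95% intervals; blue squares and red triangles give edgeR and DESeq2 on recovered reads, and the dotted line the median of all genes. The intervals of Slc17a6 and Thy1 lie below 0, and the point of Nefl changes side between limma and the count models.

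The neurofilament genes Nefl, Nefm and Nefh encode the light, medium and heavy subunits that assemble into the intermediate filaments of large axons and set their calibre. They did not separate the groups. Nefl was at 546, 1110 and 383 normalised counts in sham and at 3214, 191 and 163 in OHT. OHT replicate 1 was above every sham library, while the other OHT libraries were below every one. For Nefl the log2 difference of -0.40 (SE 0.99, limma adjusted p 0.875) turned positive in edgeR (0.69), in DESeq2 (0.81) and without sham replicate 2 (0.03), OHT replicate 2 (0.24) or OHT replicate 3 (0.35). Without OHT replicate 1 it was -1.79. Nefm was at 84.7, 46.1 and 59.3 in sham and 37.3, 42.8 and 53.7 in OHT, with a log2 difference of -0.47 (SE 1.00, limma adjusted p 0.851) that was 0.48 after quantile normalization. Nefh was at 21.7, 20.3 and 3.83 in sham and 5.53, 9.05 and 43.3 in OHT. OHT replicate 3 held the most of it and sham replicate 3 the least. The Nefh log2 difference of 0.11 (SE 1.49, limma adjusted p 0.981) became -0.62 without sham replicate 3 and -0.71 without OHT replicate 3, and 1.44 after quantile normalization.

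The subunits did not vary together in the sorted cells. The ratio of Nefl to Nefm normalised counts was 6.45, 24.1 and 6.45 in sham and 86.1, 4.46 and 3.04 in OHT. In the cultures it was 0.350, 0.283 and 0.292, below 1 in each culture and above 1 in each sorted library. Both genes were far higher in culture replicate 3 than in the others. Nefl was at 17.4, 31.1 and 697 normalised counts in the 3 cultures, and Nefm at 49.7, 110 and 2386, while their ratio stayed between 0.283 and 0.350. Nefh did not share this pattern, with 0, 5 and 3 reads. Nefl and Nefm are neighbours on opposite strands, and in GENCODE M21 they share 1108 exonic bases, 32.8% of those of Nefl, through 1 of 2 coding transcripts of Nefm. Since the sources do not say whether counting used strand, part of the reads of either gene could belong to the other.

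**Figure D4:**
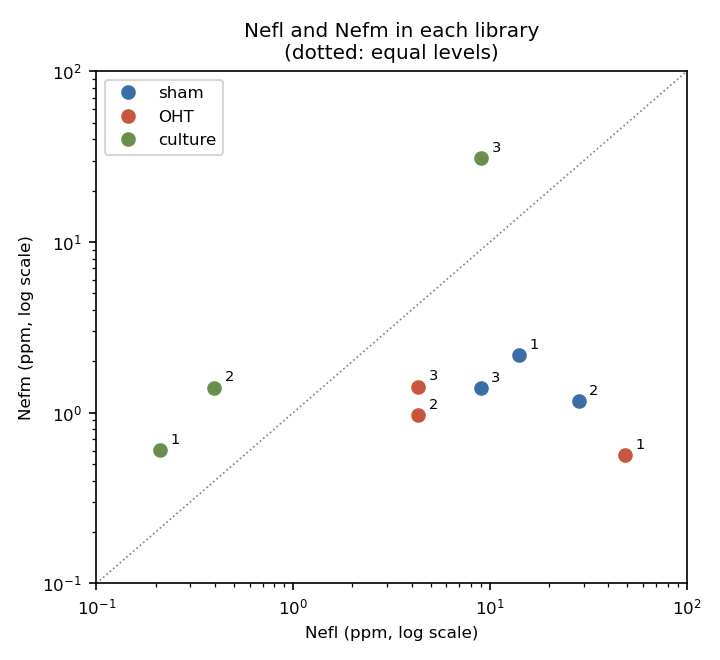
Each point is 1 library, numbered by replicate, with Nefl on the x axis and Nefm on the y axis, both in ppm on log scales; the dotted line marks equal levels. The sorted libraries lie below the line and the cultures above it, with culture replicate 3 far from the other cultures along the same ratio.

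Gap43 and Nrn1 encode proteins of growing axons. Gap43 is a membrane protein of the growth cone, and was at 285, 403 and 234 normalised counts in sham and at 98.1, 199 and 365 in OHT. OHT replicate 3 lay within the sham range. The log2 difference of -0.64 (SE 0.72, limma adjusted p 0.715) was 0.03 after quantile normalization and -0.15 without OHT replicate 1. Nrn1 encodes neuritin, a secreted or membrane-anchored protein that promotes neurite growth. Its normalised counts were 12.4, 66.4 and 52.6 in sham and 2.76, 0 and 16.0 in OHT, or 139 reads against 22 in all. OHT replicate 3 lay above sham replicate 1, so the groups overlapped. OHT minus sham came to -3.19 on the log2 scale (SE 1.60, limma adjusted p 0.462), with an interval of -6.70 to 0.32 and a range of -4.23 to -2.19 when 1 library was left out. In GENCODE M21 Nrn1 shares 501 exonic bases, 22.3% of its own, with Fars2 on the opposite strand.

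Levels can be set between genes only per length, here as ppm per kb of the longest coding transcript in GENCODE M21. In sham the order by mean was Thy1 (9.57 ± 3.80 ppm per kb, SD, n = 3), Rbpms (9.21 ± 4.62), Sncg (6.46 ± 2.24), Gap43 (5.41 ± 1.68) and Nefl (5.05 ± 2.95), then Slc17a6 (1.61 ± 1.73), Nrn1 (0.608 ± 0.393), Nefm (0.429 ± 0.142), Pou4f1 (0.135 ± 0.0405) and Nefh (0.0969 ± 0.0646). Of these neighbours only Nefm and Pou4f1 had ranges that did not overlap. In OHT Nefl led (5.67 ± 7.60), through replicate 1 alone, and Slc17a6 was the lowest (0.0153 ± 0.0135). Thy1 and Nefm, next to each other in the OHT order, had ranges apart and no other OHT neighbours did.

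In the cultures the 9 listed genes had an order by level unlike that in sham or OHT. Levels are given without a test because the tables were normalized separately. Thy1 led per length, with no overlap with the next gene, Gap43, and was at 53.0, 53.2 and 45.5 ppm (29.1 ± 2.55 ppm per kb), against 16.6 ± 6.59 ppm in sham and 3.12 ± 1.47 ppm in OHT. It made up 71.8%, 74.3% and 43.1% of the summed ppm of the 9 listed genes, not divided by transcript length. Nrn1 was at 9.24, 5.92 and 6.52 ppm, against 1.08 ± 0.699 ppm in sham. Gap43 was at 5.64, 6.08 and 8.10 ppm in the cultures, within the range over the sorted libraries. Rbpms (3.19 ± 0.495 ppm) and Sncg (1.81 ± 0.326 ppm) were lower than their sham means of 23.5 ± 11.8 and 5.50 ± 1.91 ppm. Pou4f1 had 5, 6 and 1 reads in the cultures, and Nefh 0 reads in replicate 1, which allows up to 0.0452 ppm. Pou4f1 was thus at most 0.0793 ppm in cultures that held several ppm of Thy1, Nrn1 and Gap43. The 6 fibroblast genes summed to 6071 to 8609 ppm in the cultures, mostly Col1a1 (mean 5717 ppm). Mural markers (9 of 10 listed) summed to 8483 to 13631 ppm there, mostly Acta2 (mean 10370 ppm). The 12 Müller glia markers summed to 428 to 539 ppm, against 3563 to 8667 ppm in sham. The part of fibroblasts and mural cells in the culture levels of Thy1 and Nrn1 was not tested.

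Further genes of ganglion cells, axons and synapses were read from lists. Of 14 transcription factors of developing or mature ganglion cells 9 were listed in the sorted table and 7 passed the filter. None of the 7 passed in limma (median log2 difference -0.19, against -0.12 for all genes), and 2, Ebf1 and Satb1, were lower without overlap, as were 9.18% of all genes. Klf7 was at 1646 ± 796 normalised counts in sham and 1755 ± 445 in OHT, and Ebf3 at 206 ± 59.0 and 185 ± 120. Isl1, which bipolar cells share, was at 238 ± 93.7 and 610 ± 773, with 1503 in OHT replicate 3. Ebf1, also a factor of B cells and mural cells, was at 157 ± 52.2 and 13.3 ± 9.46. Its adjusted p was 0.332 in limma (log2 difference -3.73, SE 1.14) and 0.0477 in DESeq2 (log2 difference -3.58). Atoh7, which ganglion cells need to form, was listed in neither table; Tbr1 and Irx2 were not listed in the sorted table.

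Of 12 other ganglion cell markers 11 passed the filter, with a median log2 difference of -1.93. None of the 11 passed in limma. None was lower without overlap (9.18% of all genes) and none higher without overlap (9.26%). The highest were Jam2 (3202 ± 926 in sham, 2499 ± 662 in OHT), an adhesion molecule that marks a ganglion cell type and is also endothelial, Ndn (1179 ± 461 and 979 ± 489), Penk (859 ± 793 and 1219 ± 1250), the precursor of enkephalins, and Chrnb3 (577 ± 450 and 258 ± 368), a nicotinic receptor subunit.

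Axon cytoskeleton genes (12 of 13 kept) had a median log2 difference of -1.30, with 0 in limma and 4 lower without overlap (9.18% of all genes): Dpysl3, Ina, Stmn2 and Uchl1. Dpysl3, which acts in growth cone guidance, was at 1743 ± 962 in sham and 331 ± 240 in OHT. Its adjusted p was 0.332 in limma (log2 difference -2.66, SE 0.81) and 0.0466 in DESeq2 (log2 difference -2.40). Map1b was at 7710 ± 4336 and 3591 ± 3015, Kif1a, an axonal motor, at 2359 ± 930 and 1710 ± 1100, and Basp1, a growth cone protein, at 2720 ± 1112 and 4406 ± 2398. Vesicle release genes (12 of 12 kept) had a median of -1.53, all 12 with a negative log2 difference in limma (54.8% of all genes). Of these, 0 passed the threshold and 4 were lower without overlap (9.18% of all genes), among them Sncb, Vamp2 and Cplx1. Cplx1 passed the filter through the sham libraries, since its OHT mean was 1.84. Snap25, a membrane fusion protein widespread in retinal neurons, was at 6470 ± 2367 and 3586 ± 2275, Vamp2 at 2522 ± 996 and 832 ± 351, and Syt1, the calcium sensor of release, at 2144 ± 830 and 1027 ± 941. Over the transcription factors, other markers, cytoskeleton, vesicle and injury lists limma and edgeR called 0 genes at an adjusted p under 0.05, limma had 1, 2, 3, 4 and 0 lower genes at an unadjusted p under 0.05 (6.3% of all genes), and DESeq2 called 1, 0, 1, 0 and 0 lower (1.36% of all genes). Cytoskeletal and vesicle genes are expressed by many neurons. Satb1, Ina, Stmn2, Uchl1 and Cplx1 were named after their values were seen.

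Axon injury genes (10 of 12 kept), which ganglion cells switch on after optic nerve damage, had a median log2 difference of 0.03, with 0 in limma. Of these, 0 were lower without overlap (9.18% of all genes) and 0 higher without overlap (9.26%). Atf3, an injury-induced transcription factor, was at 47440 ± 15338 normalised counts in sham and 59205 ± 16953 in OHT, and Jun at 142382 ± 25333 and 70040 ± 59095. Both are also immediate early genes that tissue dissociation induces. Ddit3, a stress factor, was at 2777 ± 867 and 4965 ± 2578, and Hspb1, a small heat shock protein, at 3865 ± 528 and 2627 ± 1963.

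Markers of other cells were read beside the ganglion cell genes, and their part in the differences above was not tested. Those of amacrine cells (9 of 10 listed) summed to 68.5 to 216 ppm in sham and 37.6 to 61.8 ppm in OHT, without overlap, as did endothelial (10 genes; 237 to 505 and 111 to 211 ppm) and mural markers. Rod markers (14 genes) summed to 2975, 27626 and 22405 ppm in sham and 1057, 1222 and 3709 ppm in OHT, overlapping through sham replicate 1 alone. All 14 rod genes had a negative log2 difference (54.8% of all genes), with a median of -2.32 beside -1.27 for the 10 ganglion cell genes. limma called 0 of the 14 and had 13 as lower at an unadjusted p under 0.05 (6.3% of all genes). edgeR called 0 and DESeq2 called 10 lower (1.36% of all genes). Cone markers (9 genes) summed to 214 to 453 ppm in sham and 239 to 728 ppm in OHT, with overlap. Their mean sum was 324 ppm in sham and 446 ppm in OHT, and their median log2 difference was -0.27. Oligodendrocyte markers (3 of 4 listed) summed to 32.4 to 56.3 and 26.3 to 53.4 ppm, with overlap. Their median log2 difference was 0.03. Sums also overlapped for markers of astrocytes (6 genes; 105 to 1511 and 121 to 211 ppm), bipolar cells (10 genes; 97.4 to 161 and 63.3 to 333 ppm) and horizontal cells (5 genes; 90.4 to 156 and 39.2 to 156 ppm). Sham replicate 2, the library with the most Slc17a6, Thy1, Sncg, Nrn1, Gap43 and Nefl among the sham libraries, had no such lead in Rbpms, Pou4f1, Nefm or Nefh. It also had the highest sham sums of rod, Müller glia, amacrine, endothelial and horizontal cell markers. Those of microglia, mural cells, astrocytes, bipolar cells, cones, fibroblasts, T cells and oligodendrocytes were highest in other sham libraries.

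**Figure D5:**
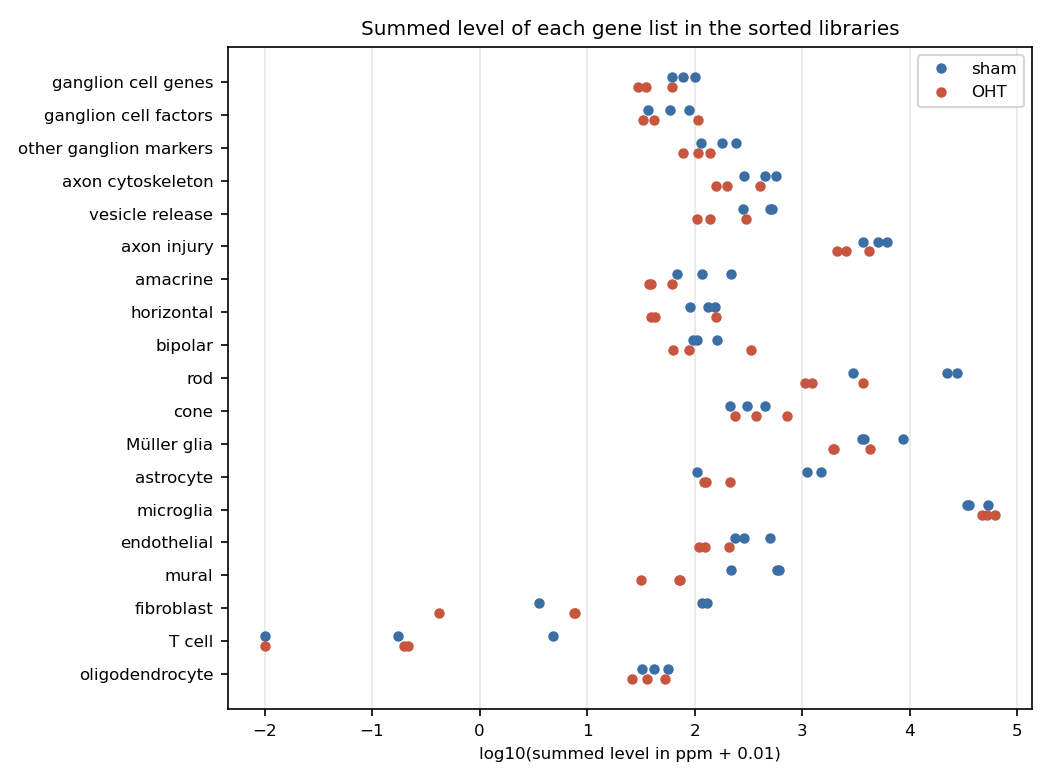
Points give the summed level of each gene list per sorted library as log10(ppm + 0.01) on the x axis, with sham in blue and OHT in red and 3 points for each. The ganglion cell genes lie lower in OHT, as do amacrine, endothelial, mural and other lists, while microglial markers lie highest in both groups.

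Genes whose pattern was most like that of the 10 were sought among 11526 genes with a mean of at least 100, by Pearson r with the mean log2 value of the 10 over the 6 sorted libraries. They were Lima1 (r = 0.99), Paqr8 (0.98), Ube2o (0.98), Pnma8b (0.98) and Pcp4l1 (0.97). Paqr8, for example, was at 157, 343 and 166 normalised counts in sham and 8.29, 1.65 and 41.7 in OHT. The 6 libraries come from 2 groups and share their scaling with every gene, so r is a description and no p is given.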

How the data were processed

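The deposited tables hold 1 signal value per gene and library, which the authors made from read counts; the sources used here name no counting program, annotation or normalization tool. Per the submitters' processing notes, bcl2fastq 2.20, Trim Galore 0.6.6, FastQC 0.11.9, STAR 2.7.1a and build mm39 were used. Per the labels' protocols, cDNA was amplified from very low input and sequenced as 150 bp paired ends. Each deposited signal is a count divided by 1 factor per library: dividing by the smallest step gave whole reads for 100% of values (tolerance 0.05 reads), though the step of culture replicate 3 is too near 1 to be an independent check. Sorted factors equalled DESeq2's median-of-ratios factors (ratio 1). No replicates agreed within sampling noise (chi-square per gene 51.2 to 818). One read was worth 0.0130 to 0.0264 ppm; limits from 0 reads (3 reads) cover counting error only, since amplified reads are not independent molecules.

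Groups came from the labels. OHT was compared with sham in limma 3.58.1 (R 4.3.3; lmFit, eBayes with trend) on log2(value + 1), a scale that understates changes of low genes, for 14403 genes that averaged 10 or more, with Benjamini-Hochberg adjustment over all of them and a threshold of 0.05. Alternatives were other pseudocounts (0.5, 10), filters (none, 100) and scalings, no trend, array weights, a replicate block, leaving out each library, and edgeR 4.0.16 and DESeq2 1.42.0 on recovered reads. The main limma fit, edgeR and DESeq2 were run on simulated counts with known changes, and the other alternatives were not. All 10 genes, the 4 highest genes of each of the 5 ganglion cell, axon, synapse and injury lists, and the 5 genes most like the 10 were named. The genes, lists and tests were chosen with earlier results of these data known. Python 3.11.15 and matplotlib 3.10.9 drew figures. Some genes of the vesicle release list are not reported here by name.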

Additional observations from a re-analysis of the deposited data

How the results depend on the processing

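Over 176 values of the 10 genes under the alternatives, 165 kept their direction and their side of the threshold, 2 passed it (Slc17a6 and Thy1 in DESeq2) and 9 changed sign. These were Nefl without sham replicate 2 (0.03), OHT replicate 2 (0.24) or OHT replicate 3 (0.35), in edgeR (0.69) and in DESeq2 (0.81), Nefm (0.48) after quantile normalization, Gap43 (0.0296) after quantile normalization, and Nefh without sham replicate 3 (-0.62) or OHT replicate 3 (-0.71); the cause was not tested. Leaving out 1 library gave -1.79 to 0.35 for Nefl and -0.71 to 0.67 for Nefh. Quantile normalization moved the median log2 difference of all genes from -0.12 to 0.01 and that of the 10 from -1.27 to -0.80. The count of all genes called, 0 in limma, was 250 in DESeq2, which gave 510 genes no adjusted p, 12 without sham replicate 1 and 7 without sham replicate 3, so leaving out 1 library gave 0 to 12. With the replicate block it was 2 (Rbp3 and Wfdc17), and no ganglion cell gene. Same-numbered libraries did not deviate together (r = 0.08, -0.02 and -0.05 across genes), and not every library correlated best with its own number, so the numbers are not taken as pairs. DESeq2 called 2 of the 10 genes and the other settings 0 of those they tested, which were 6 with the filter at a mean of 100 (without Pou4f1, Nefm, Nefh and Nrn1) and all 10 otherwise. The summed level was 109.6 ppm in sham without the 20 highest genes in the total, 22.9 ppm in OHT without Nefl and 33.1 ppm in the cultures without Thy1, against 80.6, 42.1 and 83.7 ppm. Depth limits Pou4f1, Nefh, Nrn1 and, in OHT, Slc17a6, which rest on few reads. Recomputed size factors equal the deposited ones and are no separate check.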

Other observations

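The 13 axon cytoskeleton genes summed to 3554 to 4114 ppm in the cultures, against 285 to 570 ppm in sham and 157 to 409 ppm in OHT, while the 12 vesicle release genes summed to 28.8 to 40.6 ppm in the cultures, against 282 to 524 and 104 to 298 ppm. Of the 13, 7 were higher in the cultures than in sham by mean ppm and 6 lower (Basp1, Map2, Mapt, Ina, Stmn3 and Prph), such as Basp1 at 29.0 against 68.1 ppm and Map2 at 2.48 against 36.3 ppm, the 6 named after their values were seen. Dpysl3 was at 1532 ppm in the cultures (mean of 3), 43.0 ppm in sham and 8.00 ppm in OHT, Map1b at 1013, 190 and 85.9 ppm, and Kif1a at 265, 58.4 and 38.8 ppm. Stmn2, a growth cone protein, and Tubb3, the neuronal beta-tubulin, both picked after their values were seen, were at 90788, 42912 and 42015 and at 16326, 13220 and 10749 normalised counts in the 3 cultures. In contrast Snap25 was at 0.0304 ppm, against 159 ppm in sham, and Sncb at 0.0531 ppm, against 59.8 ppm. Ebf1 was at 15.3 ppm in the cultures and 3.94 ppm in sham. These are levels from tables normalized separately, set side by side with no test.

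The gene Gal, which encodes the neuropeptide galanin and is on the axon injury list, was at 1934 normalised counts in OHT replicate 1 and at 26.4 or less in the other sorted libraries. It was picked after its values were seen. Among the sorted libraries the same one held the most Nefl (3214) and Trib3 (2002, against at most 220 in the other sorted libraries). Trib3 too was picked after its values were seen. Of the other injury genes that passed the filter, Tnfrsf12a was also highest in that library. Atf3 and Ddit3 were highest in OHT replicate 3, Jun and Hspb1 in sham replicate 1, and Gadd45a, Sox11 and Chac1 in sham replicate 3.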
